A study of Mus musculus with 8 samples.

Results

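Fibronectin (Fn1) and 9 integrin or integrin-like genes were followed in sorted preadipocytes, the fat cell precursors of inguinal white fat (iWAT). They are the rows Fn1, Itga1, Itga5, Itga6, Itga7, Itga11, Itgav, Itgb1, Itgb5 and Itgbl1 among the 35976 gene symbols of the count table, and all 10 were found. The comparison set 3 libraries of Pdgfra-Tet3 KO preadipocytes (here KO, Tet3 deleted under Pdgfra) against 3 libraries of Tet3 f/f preadipocytes (here WT, floxed alleles that are not deleted). Tet3 encodes a dioxygenase that oxidises 5-methylcytosine. All 6 libraries came from male mice after 6 weeks of high fat diet, and cells were sorted as CD45-, CD31-, TER119- and PDGFRa+. Pdgfra is thus both the gene that names the deletion and a gene of the sort. The age of the mice, the number of mice behind a library and the Cre behind the deletion are not stated, and the p-values below therefore reflect library-to-library spread, which can be technical in part or in full. A second assay of the series, bisulfite sequencing of 1 pool per genotype, was not analysed here.

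Fibronectin is a secreted glycoprotein that cells assemble into fibrils, and its RGD loop is bound by integrins. An integrin is a pair of 1 alpha and 1 beta subunit that spans the membrane and links the matrix to actin through talin, kindlin and other adaptors. The alpha chain largely sets the ligand. With the beta 1 chain, alpha 5 is the main fibronectin receptor, alpha 1 and alpha 11 bind collagens, and alpha 6 and alpha 7 bind laminins, while alpha v pairs with several beta chains, among them beta 5, and binds RGD ligands such as vitronectin. In cultured mouse preadipocytes that turn into fat cells, a shift from alpha 5 to alpha 6 has been described, and fibronectin is known to hold back adipogenesis in culture.

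The libraries held 1831218 to 2374978 counts. Levels are given as CPM, counts scaled to the effective library size, and were compared between genotypes for 1 gene at a time, since no transcript lengths were used. Tests are edgeR's quasi-likelihood test with Benjamini-Hochberg adjustment over all 9943 tested genes, and a gene is said to have risen or fallen where the adjusted p was under 0.05. Tet3 itself averaged 42.3 ± 2.91 CPM in KO and 49.9 ± 5.01 CPM in WT (SD, n = 3 each; adjusted p = 0.71), a count over the whole gene that does not test the deletion. Of the 8 stromal markers all were tested: Cd34, Ly6a and Col1a1 rose (log2 fold change 0.54, 0.37 and 0.44), Pdgfra, Pdgfrb and Lum fell (-0.52, -0.91 and -0.40), and Dcn and Thy1 did not pass. The 7 lymphocyte markers had 0 counts in every library, as had 4 of 8 macrophage markers (Adgre1, Lyz2, Itgam and C1qa). Gapdh never exceeded 1 count, which means that a 0 in this table does not show that a gene was silent.

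Of the 10 genes, 1 fell in KO, none rose, 8 did not pass and Itga6 was too low to be tested. The gene that fell was Itgbl1. Among all tested genes 3.59% were called in either direction and 1.77% were lower, which is the background for the 1 call among 9 genes (11.1%). The groups did not overlap for 3 of the 9 tested genes, Fn1 above WT and Itgb1 and Itgbl1 below it, where 20.4% of all tested genes did not overlap (10.1% with KO above WT and 10.3% with KO below). The 9 genes had a median log2 fold change (KO over WT) of -0.08, and all tested genes one of -0.0024.

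**Figure D1:**
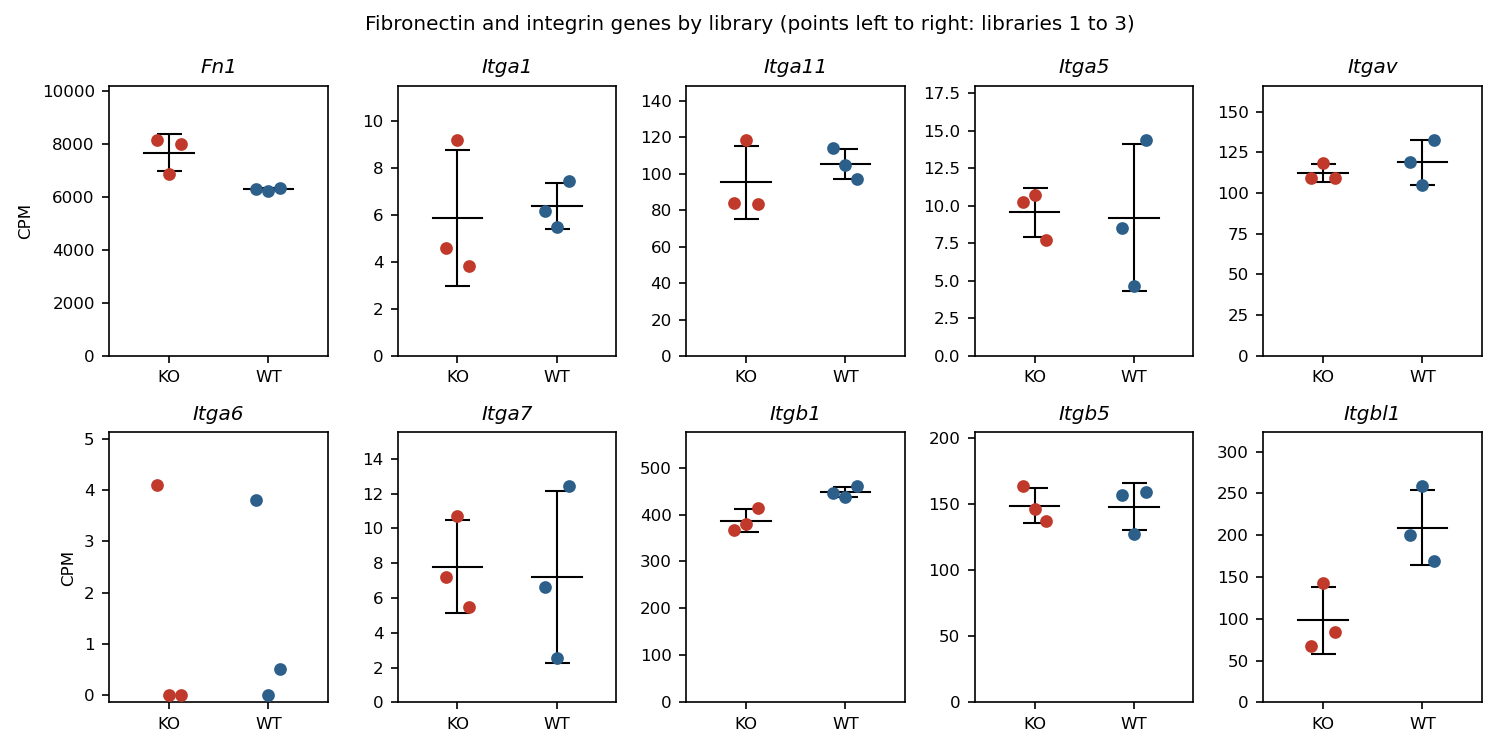
Normalised level (CPM, linear axis from 0) of each of the 10 genes in the 3 KO and the 3 WT libraries. Points are libraries, horizontal lines are means and bars are SD, and neither is drawn for Itga6, which had 0 or 1 counts in 4 libraries. The KO points lie below the WT points for Itgb1 and Itgbl1 and above them for Fn1.

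Fn1, the ligand of the group, stood at 8150, 6877 and 7986 CPM in KO libraries 1 to 3, against 6311, 6241 and 6349 CPM in WT libraries 1 to 3. Every KO library lay above every WT library, with KO library 2 nearest to WT. The mean was 7671 ± 693 CPM in KO and 6301 ± 54.9 CPM in WT (SD, n = 3 each). This is a log2 fold change of 0.28 ± 0.08 (SE; approximate 95% interval 0.11 to 0.46), with an adjusted p of 0.0572 by edgeR, which misses the threshold. Before adjustment over 9943 genes the edgeR p was 0.00222. The call changed with the tool: DESeq2 gave an adjusted p of 0.0139 and limma-voom one of 0.00716. Across 13 alternatives the log2 fold change ran between 0.24 and 0.35 and passed in 5.

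The spread of Fn1 differed between the genotypes. The coefficient of variation over 3 libraries was 9.03% in KO and 0.871% in WT, where counting error alone gives 0.827% in KO and 0.857% in WT. The WT libraries thus agreed to within counting error, and the KO libraries varied by 10.9 times that error, a contrast of spreads that was not tested. KO library 1, the highest in Fn1, also held the most erythroid marker counts, at 151 CPM, against 0 CPM in KO library 2, 39.1 CPM in KO library 3 and at most 7.13 CPM in a WT library. A link between erythroid markers and Fn1 was not tested. Without KO library 1 the log2 fold change of Fn1 was 0.24 (adjusted p = 0.0629, edgeR). Leaving out KO library 3 or any 1 WT library gave a higher adjusted p, of 0.173 to 0.248 (edgeR). Leaving out KO library 2 gave a lower one, of 0.0062 (edgeR).

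Itgb1, the beta chain shared by the collagen, laminin and fibronectin receptors named above, stood at 366, 381 and 414 CPM in KO libraries 1 to 3, against 446, 438 and 460 CPM in WT libraries 1 to 3. The 2 groups did not overlap, and the lowest WT library was 438 CPM. Itgb1 did not pass, at a log2 fold change of -0.21 ± 0.12 (SE; approximate 95% interval -0.45 to 0.03; adjusted p = 0.42, edgeR). No alternative called Itgb1, and over the 13 of them the log2 fold change lay between -0.26 and -0.17. A 2-fold fall lies outside the interval.

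Itgbl1 encodes a secreted protein made of EGF-like repeats that resemble the stalk of an integrin beta chain, without the parts that bind ligand or cross the membrane, so it is not a receptor subunit. It stood at 67.2, 143 and 84.2 CPM in KO libraries 1 to 3, against 200, 258 and 169 CPM in WT libraries 1 to 3. All KO libraries lay below all WT libraries, and KO library 2 came nearest to WT, as it did for Fn1. The mean was 98.0 ± 39.6 CPM in KO and 209 ± 45.2 CPM in WT (SD, n = 3 each), and the log2 fold change was -1.09 ± 0.20 (SE; approximate 95% interval -1.51 to -0.68; adjusted p = 0.000868, edgeR). Itgbl1 passed in all 13 alternatives, with log2 fold changes between -1.48 without KO library 2 and -0.88 without KO library 1, and the highest adjusted p was 0.0375, without KO library 3.

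The spread of Itgbl1 within a genotype was wide, at a coefficient of variation of 40.4% in KO and 21.6% in WT, where counting error alone gives 7.30% in KO and 4.68% in WT. The 9 markers of pericytes and smooth muscle summed to 54.9 to 118 CPM in KO and 148 to 182 CPM in WT, and none was at 0 in every library. Most of this sum was Notch3, at 16.6 CPM in KO and 49.0 CPM in WT on average, and Abcc9, at 63.2 CPM in KO and 99.6 CPM in WT. Of the 3 markers tested, Notch3 fell (log2 fold change -1.56, adjusted p = 0.00243, edgeR), and Abcc9 (adjusted p = 0.118) and Kcnj8 (adjusted p = 0.974) did not pass. The other 6 had too few counts to be tested, and each overlapped between the genotypes. The averages of Rgs5 (4.08 CPM in KO and 2.10 CPM in WT) and Myh11 (2.30 CPM in KO and 1.22 CPM in WT) were higher in KO. Those of Acta2 (0.88 CPM in KO and 1.75 CPM in WT) and Cspg4 (1.56 CPM in KO and 1.85 CPM in WT) were lower in KO. So were those of Tagln (0 CPM in KO and 0.32 CPM in WT) and Cnn1 (0 CPM in KO and 0.16 CPM in WT). KO library 1 was the lowest of the 6 in both Itgbl1 and this sum, while KO library 3, second lowest in Itgbl1, was the highest KO library in the sum. Their part in the Itgbl1 result was not tested. In bulk RNA, fewer cells of a type and less RNA per cell cannot be told apart. In the RefSeq annotation the Itgbl1 gene overlaps Fgf14, which had 0 counts in every library.

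**Figure D2:**
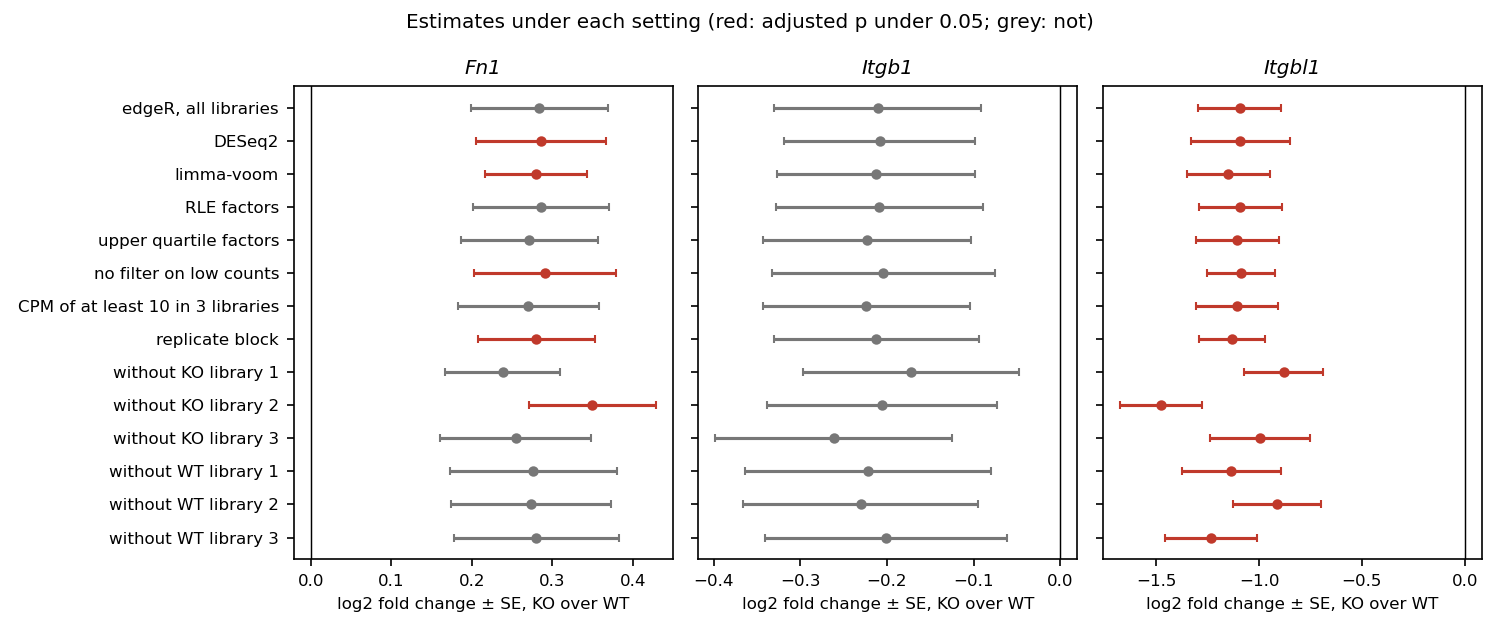
Log2 fold change of KO over WT with its SE for Fn1, Itgb1 and Itgbl1 under each processing setting, one row per setting. Red marks an adjusted p under 0.05. Itgbl1 is red in every row, Fn1 in the rows of DESeq2, limma-voom, no filter, the replicate block and without KO library 2, and Itgb1 in none.

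Promoter sequences from RefSeq (GRCm38.p6, 250 bases before to 50 after an annotated start) were held for 7 of the 10 genes. The promoters of Itgbl1, the gene that fell, and of Itgb1, the shared beta chain, are printed because they lie at opposite ends of the 7 in CpG content, the dinucleotide that TET enzymes act on. Capitals mark GGGCGG (the GC box bound by SP and KLF factors) and CATTCC (the core bound by TEAD factors), each on either strand.
Itgbl1, chr14:123659890-123660189, plus strand: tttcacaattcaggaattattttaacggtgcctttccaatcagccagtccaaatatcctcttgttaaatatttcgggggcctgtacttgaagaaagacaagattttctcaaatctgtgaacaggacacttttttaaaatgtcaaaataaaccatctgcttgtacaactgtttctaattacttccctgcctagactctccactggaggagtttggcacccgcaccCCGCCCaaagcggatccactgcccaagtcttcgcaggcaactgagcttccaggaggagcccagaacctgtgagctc
Itgb1, chr8:128685404-128685703, plus strand: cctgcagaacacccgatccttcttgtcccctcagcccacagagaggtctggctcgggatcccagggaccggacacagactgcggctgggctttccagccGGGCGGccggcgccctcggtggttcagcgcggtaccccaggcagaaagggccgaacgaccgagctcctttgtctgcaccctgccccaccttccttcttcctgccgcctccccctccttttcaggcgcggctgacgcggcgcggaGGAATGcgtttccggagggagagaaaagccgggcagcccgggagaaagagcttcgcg
The Itgbl1 window holds 6 CpGs, below the median of 7 over all 32851 promoter windows. The Itgb1 window holds 27, more than 84.5% of them, and the other 5 genes hold between 12 and 24. Both windows hold 1 GC box, which 35.7% of all promoters have, and the Itgb1 window also holds 1 CATTCC, which 14.7% have. Neither holds TATAAA (13.6% of all promoters), the AP-1 motif TGANTCA (7.81%) or the CArG box of SRF (1.63%), searched on both strands. These are matches of letters and not sites of binding, and methylation at these windows was not read here.

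Neither chain of the collagen receptors passed the test. Itga11, which pairs with beta 1 and is typical of fibroblasts, stood at 84.2, 119 and 83.6 CPM in KO libraries 1 to 3, against 114, 105 and 97.3 CPM in WT libraries 1 to 3. KO library 2 lay above all WT libraries and the other two KO libraries below them. The log2 fold change was -0.14 ± 0.18 (SE; approximate 95% interval -0.52 to 0.23; adjusted p = 0.789, edgeR). Itga1 rested on 7 to 18 counts in KO and 13 to 15 in WT, with a log2 fold change of -0.11 ± 0.66 and overlapping groups. The gene Pelo lies within Itga1 in the annotation and had 38 to 62 counts in KO and 48 to 63 in WT, so reads of the 2 genes could be confused, the use of strand in counting not being stated.

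The chains of RGD receptors did not pass either. Itga5, the alpha chain of the main fibronectin receptor, had 20, 21 and 14 counts in KO libraries 1 to 3, against 18, 11 and 29 in WT libraries 1 to 3. The WT libraries alone spanned the KO values. The log2 fold change was 0.07 ± 0.56 (SE), and its approximate 95% interval, -1.07 to 1.20, leaves room for a 2-fold change either way (adjusted p = 0.978, edgeR).

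Itgav was measured more firmly, at 109, 119 and 109 CPM in KO libraries 1 to 3, against 119, 105 and 133 CPM in WT libraries 1 to 3. The groups overlapped, and the log2 fold change was -0.08 ± 0.17 (SE; approximate 95% interval -0.42 to 0.26; adjusted p = 0.881, edgeR). Itgb5, a partner of alpha v and a receptor chain for vitronectin, stood at 163, 146 and 137 CPM in KO libraries 1 to 3, against 157, 127 and 159 CPM in WT libraries 1 to 3. Its log2 fold change was 0.01 ± 0.16 (SE; approximate 95% interval -0.31 to 0.33; adjusted p = 0.986, edgeR), so a 2-fold change of either chain lies outside these intervals.

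The laminin receptor chains were near the limit of what the libraries could show. Itga7, best known from skeletal muscle, had 14, 21 and 10 counts in KO libraries 1 to 3, against 14, 6 and 25 in WT libraries 1 to 3, and its log2 fold change was 0.13 ± 0.64 (SE; adjusted p = 0.957, edgeR). Markers of skeletal muscle summed to 96.0, 164 and 188 CPM in KO libraries 1 to 3 and 102, 30.5 and 112 CPM in WT libraries 1 to 3, and WT library 2 was lowest in both. Among the KO libraries, library 3 was highest in this sum but lowest in Itga7. The part of muscle RNA in the Itga7 values was not tested. Itga6 had 8, 0 and 0 counts in KO and 8, 0 and 1 in WT. Library 1 of each genotype held nearly all of them, and a gene at 0 could lie at up to 1.27 to 1.65 CPM (the worth of 3 counts, counting error only), so no fold change is given.

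**Figure D3:**
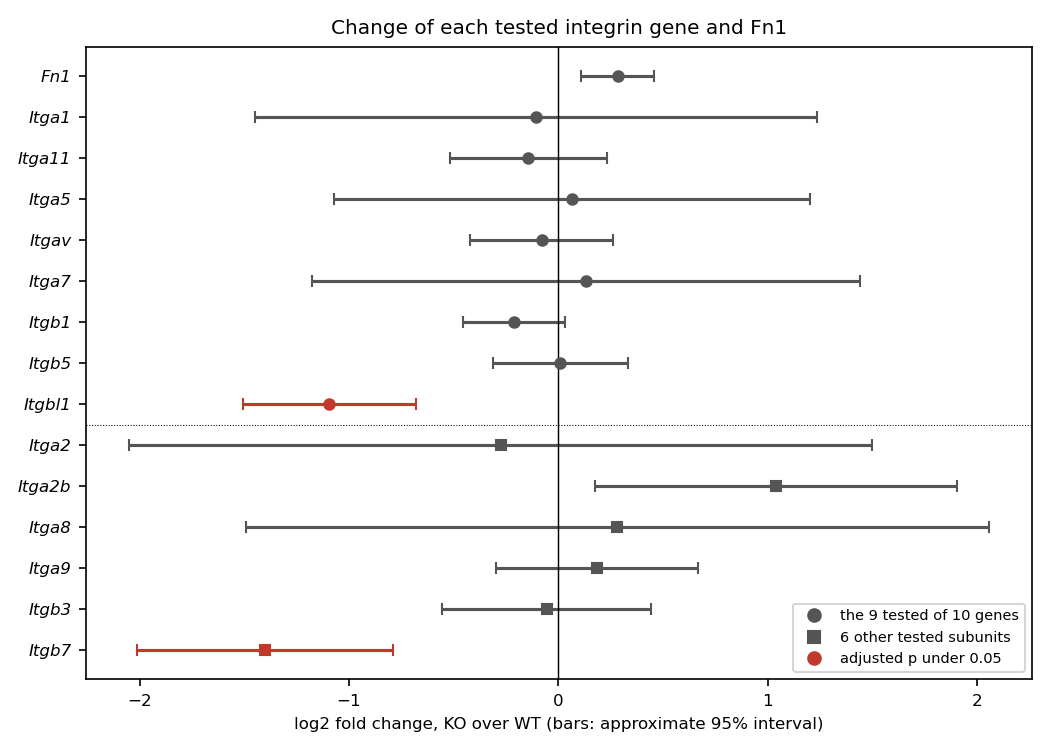
Log2 fold change of KO over WT with approximate 95% intervals for the 9 tested genes (circles) and 6 further integrin subunits (squares). Red marks an adjusted p under 0.05, reached by Itgbl1 at -1.09 and Itgb7 at -1.40. The widest intervals belong to Itga2 and Itga8, which have few counts.

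Ratios within a library, which do not depend on how libraries are scaled, asked whether the balance of subunits differed. For Itgav over Itgb1 the log2 ratio of counts was -1.78 ± 0.13 in KO and -1.92 ± 0.13 in WT (SD, n = 3 each), a difference of 0.14 (exact two-sided permutation test, p = 0.3). Itga11 over Itgb1 differed by 0.05 and Itgb5 over Itgav by 0.09 (exact permutation p = 0.9 and 0.5). Fn1 over Itga5 differed by 0.09, with an SD of 0.34 in KO and 0.78 in WT (exact permutation p = 0.9). All 8 ratios overlapped between the genotypes and all had an adjusted p of 1 over the 8 by exact permutation, where 3 against 3 libraries cannot give a p under 0.1. For Itga1, Itga6, Itga7 and Itga11 over Itgb1, and for Fn1 over Itga5, the sign turned when 1 library was left out, and for Itga6 also with a pseudocount of 1.

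**Figure D4:**
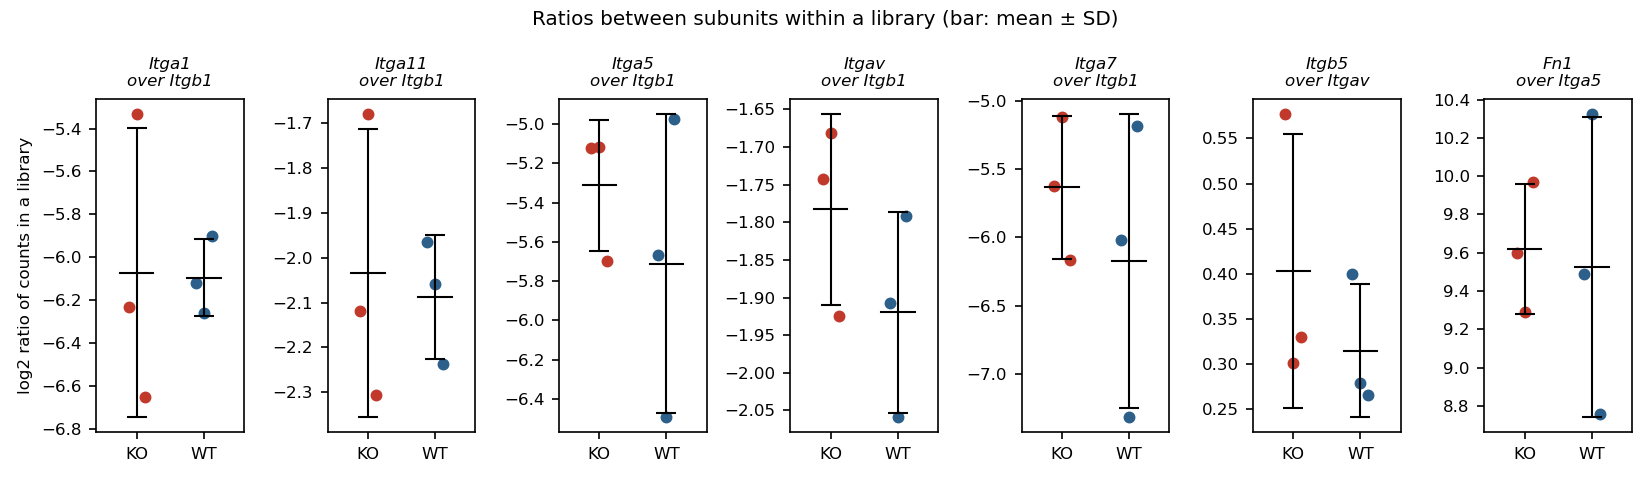
Log2 ratio of counts of a pair of genes within each library, for 7 of the 8 pairs (Itga6 over Itgb1, at 0 counts in several libraries, is left out). Points are libraries, lines are means and bars are SD. KO and WT points overlap in every panel, and the axes do not start at 0 because the values are log ratios.

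Among the 18 other integrin subunits, 6 were tested, 1 fell and none rose, with a median log2 fold change of 0.06. Of the 18, 7 had 0 counts in every library. The subunits of white blood cells Itgad, Itgae, Itgal, Itgam, Itgax and Itgb2 and the epithelial Itgb6 were those at 0. The subunit that fell was Itgb7, a beta chain known from lymphocytes, with 56, 32 and 30 counts in KO libraries 1 to 3, against 137, 143 and 75 in WT libraries 1 to 3. All KO libraries lay below all WT libraries, and the log2 fold change was -1.40 ± 0.30 (SE; adjusted p = 0.00414, edgeR). Its known alpha partners were almost unread, with 1 count of Itga4 in 6 libraries and none of Itgae, and the lymphocyte markers were at 0 too. The Itgb7 call was lost without KO library 3 (adjusted p = 0.0682, edgeR) and without WT library 1 (adjusted p = 0.0544, edgeR).

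Itga2b, the platelet alpha chain that pairs with beta 3, stood at 23.1, 18.4 and 19.3 CPM in KO libraries 1 to 3, against 11.9, 6.77 and 10.9 CPM in WT libraries 1 to 3. The groups did not overlap, but the gene, named after its values were seen, did not pass (log2 fold change 1.04 ± 0.42, SE; adjusted p = 0.208, edgeR). Its partner Itgb3 averaged 50.8 ± 13.6 CPM in KO and 52.7 ± 6.20 CPM in WT (SD, n = 3 each; adjusted p = 0.95, edgeR).

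The partners of integrins on both sides of the membrane were counted in lists. Of 25 tested adaptors, kinases and actin linkers, 2 fell, none rose and 23 did not pass. These were Actn1, an alpha-actinin that crosslinks actin, at a log2 fold change of -1.02 ± 0.27 (SE), and Fblim1, a filamin-binding LIM protein of cell adhesions, at -2.56 ± 0.60. Actn1 stood at 21.0, 25.6 and 23.7 CPM in KO libraries 1 to 3, against 47.5, 53.3 and 41.2 CPM in WT libraries 1 to 3, with no overlap. Its call was lost in 4 of the 6 fits without 1 library, those without KO library 1 or 3 or WT library 1 or 2 (adjusted p up to 0.135, edgeR). Fblim1 had few counts, with 11, 1 and 8 in KO libraries 1 to 3, against 29, 31 and 73 in WT libraries 1 to 3. Fblim1 lost its call without KO library 3 or WT library 3 (adjusted p up to 0.198, edgeR) and under limma-voom (adjusted p = 0.0759), and DESeq2 gave it no adjusted p. WT library 3, at 36.2 CPM, stood above the other WT libraries, and without it the log2 fold change was -1.93. The list median was -0.12.

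Of 16 tested ligands other than fibronectin, collagens and laminins, 3 fell, none rose and 13 did not pass, with a list median of -0.38. Tgfbi, a matrix protein bound by several integrins, fell by 1.03 ± 0.12 on the log2 scale (SE). Periostin (Postn), a ligand of alpha v integrins, stood at 925, 778 and 779 CPM in KO libraries 1 to 3, against 1222, 1499 and 1041 CPM in WT libraries 1 to 3. The groups did not overlap, and Postn fell by 0.60 ± 0.12 (adjusted p = 0.00219, edgeR), a call lost without KO library 3 (adjusted p = 0.0508). Thrombospondin 1 (Thbs1) fell by 1.15 ± 0.33 (adjusted p = 0.0481, edgeR), and it lost its call in each of the 6 fits without 1 library (adjusted p up to 0.229) under DESeq2 (adjusted p = 0.0569) and under limma-voom (adjusted p = 0.0821).

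Of 14 tested collagen and laminin chains, 4 fell, 1 rose and 9 did not pass, and the list median was -0.20. The largest falls were those of the basement membrane chains Col4a1 (-0.82 ± 0.10) and Col4a2 (-0.76 ± 0.12), followed by Col6a1 (-0.62 ± 0.11) and Col6a3 (-0.59 ± 0.10), chains of the beaded filaments of collagen VI (log2 fold change ± SE). No tested laminin chain passed. The chain that rose was Col1a1, at 0.44 ± 0.10, named after its values were seen. DESeq2 did not call it (adjusted p = 0.25), its call also ended without WT library 1 or 2 (adjusted p up to 0.071, edgeR), and its log2 fold change was 0.24 without KO library 1.

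Of 8 tested membrane proteins that associate with integrins, 1 fell, none rose and 7 did not pass, with a list median of -0.22. It was the tetraspanin Cd9, which stood at 86.7, 107 and 94.1 CPM in KO libraries 1 to 3, against 184, 209 and 179 CPM in WT libraries 1 to 3. All KO libraries lay far below the lowest WT library, and the log2 fold change was -0.99 ± 0.16 (SE; adjusted p = 0.000147, edgeR), a call that no alternative ended. Of 9 tested genes of fibronectin assembly and syndecan co-receptors, 1 rose, none fell and 8 did not pass, and the list median was -0.30. The one that rose, Ugdh, encodes the enzyme that makes UDP-glucuronate for glycosaminoglycan chains and does not itself act on fibronectin. It averaged 1115 ± 102 CPM in KO and 643 ± 4.54 CPM in WT (SD, n = 3 each), which is 0.79 ± 0.11 on the log2 scale (SE; adjusted p = 1.45e-05, edgeR). Over the 5 lists of partners, 10 of 72 tested genes fell and 2 rose, a share of 13.9% and 2.78%, beside 1.77% lower and 1.82% higher of all tested genes. These shares were not matched for level. The calls of Actn1, Fblim1, Postn, Thbs1 and Col1a1 in them were each lost in at least 1 fit that left out a library. The lists were drawn up with earlier results of these data known, collagens among them.

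**Figure D5:**
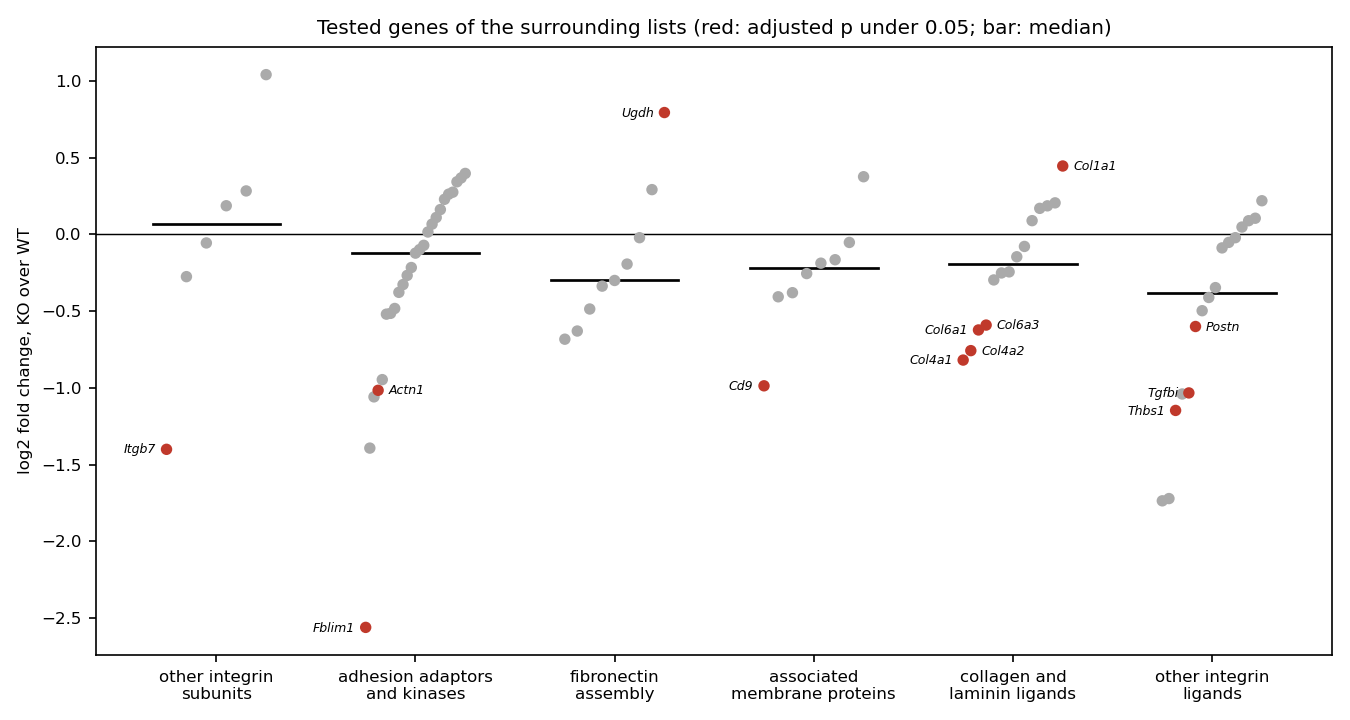
Log2 fold change of KO over WT for every tested gene of the 6 surrounding lists. Red points have an adjusted p under 0.05 and carry their names, grey points do not, and black bars are list medians. The medians of the 5 lists of partners lie below 0, between -0.12 and -0.38, that of the other integrin subunits lies at 0.06, and most points are grey.

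The genes whose log2 CPM ran most like that of Fn1 over the 6 libraries, among 4973 genes at a mean log2 CPM of 5 or more, were Il6st (Pearson r = 0.996), the stromal marker Cd34 (r = 0.993), Yy1 (r = 0.991), Ets2 (r = 0.984) and Rpl13 (r = 0.984). Those most like Itgb1 were Fam175b (r = 0.985), Mpdz (r = 0.984), Appl1 (r = 0.976), Paip2 (r = 0.974) and Epas1 (r = 0.969). These values describe 6 libraries that share 2 genotypes and carry no test. Among these genes, Cd34 and Rpl13 rose in KO and Epas1 fell by edgeR (log2 fold change 0.54, 0.54 and -0.77), and the Rpl13 call was lost without KO library 1 or 3 or any 1 WT library (adjusted p up to 0.113).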

How the data were processed

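The deposited table gives, for 3 KO and 3 WT poly(A) RNA-seq libraries, whole-number read counts for each gene symbol that were not normalised. Groups and library numbers follow the sample titles. Per the submitters' processing notes the tools included HISAT2 2.2.1, HTSeq 0.9.1 and Trim Galore 0.6.6, and neither their roles, the build of the counts nor the strand setting is stated.

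The test was edgeR 4.0.16 (R 4.3.3, limma 3.58.1): filterByExpr (minimum count 10, minimum total 15), TMM factors, a quasi-likelihood test of KO over WT and Benjamini-Hochberg adjustment at 0.05. Tested genes held at least 99.2% of each library. The biological coefficient of variation was 22.6%. SE and approximate 95% intervals follow from the F statistic. Ratios used a pseudocount of 0.5. The alternatives left out each library, added a replicate block, used upper quartile or RLE factors, changed the filter, or tested with limma-voom or DESeq2 1.42.0.

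On simulated KO over WT data of 9943 genes, the test called 52% of 100 genes with a 2-fold change and 93% of 100 with a 4-fold change, with 11 unchanged genes among 156 calls. Each simulated gene was given the spread typical of its level and no spread of its own, so these shares may not carry over to the real libraries. Replicates differed by a chi-square of 4.05 to 7.13 per degree of freedom, above counting noise, and none were merged.

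The genes and lists were chosen with earlier results of these data known. Named were all 10 genes, up to 4 called genes per list by adjusted p, and the 5 genes most like Fn1 and Itgb1. Symbols missing from the table were matched through RefSeq synonyms. The bisulfite regions were not used, because the build of their coordinates is not stated.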

Additional observations from a re-analysis of the deposited data

How the results depend on the processing

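The count of called genes among the 10 was 1 (Itgbl1) and became 2 under DESeq2, limma-voom, no filter on low counts and the replicate block, each time through Fn1, and it was 1 to 2 when 1 library was left out. The log2 fold change of Fn1 stayed positive in all 13 alternatives, with adjusted p between 0.0062 and 0.248. Over all genes 357 were called, and leaving out 1 library gave 158 to 370 calls in all, 82 to 182 higher and 76 to 188 lower, with the fewest without KO library 3. Every other alternative gave between 335 and 501 calls. No scaling moved the median of all genes by more than 0.1 (log2). Whether equal replicate numbers in the labels mark paired libraries cannot be told from these values. The deviations of same-numbered libraries correlated at 0.0253 to 0.0943, and those of differently numbered ones at -0.115 to 0.06. Of the 6 libraries, 5 correlated best with their own number. The fit with the replicate block called 501 genes, among them Itgbl1 (-1.13) and Fn1 (0.28, adjusted p = 0.00975). At this depth, a 2-fold change either way lies within the intervals of Itga1, Itga5 and Itga7, and Itga6 could not be tested.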

Other observations

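Of the 5 tested alpha subunits, 4 (Itga1, Itga5, Itgav and Itga7) shared 1 order of libraries within each genotype: library 2 above library 1 above library 3 in KO, and library 3 above library 1 above library 2 in WT. The fifth, Itga11, shared the order in KO only. Parts of the order are near ties: Itga1 had 13 counts in both WT library 1 and WT library 2. Itga5 had 20 and 21 counts in KO libraries 1 and 2, and Itgav stood at 109 CPM in both KO library 1 and KO library 3. Itga1, Itga5 and Itga7 had at most 29 counts in any library. The summed level of the 6 alpha subunits was 220, 268 and 210 CPM in KO libraries 1 to 3 and 258, 223 and 265 CPM in WT libraries 1 to 3, so the genotypes overlapped. The sum of Itgb1 and Itgb5 was 530, 527 and 551 CPM in KO libraries 1 to 3 and 603, 566 and 619 CPM in WT libraries 1 to 3, with no overlap. Itgb5 alone overlapped between the genotypes, so this separation is that of Itgb1, which did not pass (adjusted p = 0.42, edgeR). No transcript lengths enter these sums. These patterns were seen in the values and were not tested.

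Pdgfra, a gene of the sort, stood at 407, 482 and 462 CPM in KO libraries 1 to 3 and 666, 660 and 619 CPM in WT libraries 1 to 3, and its log2 fold change was -0.52 ± 0.12 (SE; adjusted p = 0.00598, edgeR).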
